A study of Homo sapiens with 12 samples.

Results

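The 8 human protein-coding genes SMPX, SSPO, SLC18A2, DUSP15, TSPAN1, ITIH6, GSX1 and ADIPOQ were followed through 4 groups of 12 RNA libraries of H520 cells. They are 8 of the 58174 gene rows measured. They were picked because earlier work on these same libraries had named them among the largest rises under drug, taken over protein-coding genes that were called higher, had no overlap between the libraries compared and reached a mean of 5 CPM (counts scaled to a common library size with TMM factors) in a compared group: SMPX, SSPO and SLC18A2 by palbociclib against control, and DUSP15, ADIPOQ, ITIH6, TSPAN1 and GSX1 by the combination against control. H520 is an established human cell line of lung squamous cell carcinoma. The labels name no genetic change in any group: control cells, cells given 1 µM BLU9931, cells given 1 µM palbociclib, and cells given both drugs at 1 µM each, with treatment lasting 72 h. Each group has 3 libraries. The labels say neither what the control cells received nor whether libraries of a group came from different cultures. The p-values then measure only the spread between these libraries, which may be technical.

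BLU9931 is an irreversible inhibitor of the receptor tyrosine kinase FGFR4, which signals through the RAS and ERK pathway. Palbociclib inhibits the kinases CDK4 and CDK6, which phosphorylate the retinoblastoma protein and so let cells pass from G1 into S phase. The 8 genes come from different pathways. SMPX encodes a small protein of striated muscle, SSPO the giant secreted glycoprotein SCO-spondin of the brain's Reissner fibre, and SLC18A2 the vesicular monoamine transporter VMAT2. DUSP15 encodes an atypical dual-specificity phosphatase, TSPAN1 a four-pass membrane protein of epithelia, ITIH6 a member of the inter-alpha-trypsin inhibitor heavy chain family, GSX1 a homeodomain transcription factor of neural progenitors, and ADIPOQ the fat cell hormone adiponectin.

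None of the 8 genes needed both drugs to stand above control: all 8 had every library of at least 1 single-drug group above every control library. Under palbociclib alone 7 of 8 did, all but DUSP15, beside 15.8% of the 20612 genes tested. Under BLU9931 alone 4 of 8 did, namely SSPO, DUSP15, TSPAN1 and GSX1, beside 15.3% of genes tested. With both drugs all 8 did, beside 24.9%. Lack of overlap with control was itself a condition of the choice. It was set under palbociclib for SMPX, SSPO and SLC18A2 and with both drugs for the other 5. The counts under palbociclib and with both drugs are therefore partly built in. All of these counts describe the choice and its relatives, since each comparison shares libraries with those that picked the genes. Measured against palbociclib alone, the combination was wholly higher for 5 genes (DUSP15, TSPAN1, ITIH6, GSX1 and ADIPOQ), beside 9.97% of genes tested. It was wholly lower for SMPX and SLC18A2, beside 11.6%, and it overlapped palbociclib for SSPO. The 5 were chosen for high combination libraries, and SMPX and SLC18A2 for high palbociclib libraries. The choice thus favours these directions, and the shares of all genes are no fair measure for them. In bulk RNA, more cells that make a transcript and more transcript per cell cannot be told apart.

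The name under which the genes were grouped, induced from low or near-silent levels, held for only part of them. In control cells 4 of the 8 lay under a mean of 1 CPM: DUSP15 at 0.122 ± 0.114 CPM (SD, n = 3, as for all such values below), ADIPOQ at 0.192 ± 0.166, ITIH6 at 0.227 ± 0.150 and TSPAN1 at 0.432 ± 0.153. The other 4 were already present, SSPO at 1.41 ± 0.81 CPM, GSX1 at 2.55 ± 0.92, SLC18A2 at 4.99 ± 2.02 and SMPX at 6.27 ± 1.41.

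Library totals ran from 21.7 to 35.8 M counts (M, mega). Control 1 and palbociclib 3 stood apart from their group mates in a way that followed GC content. Over 20531 genes, Spearman's rho between GC content and a library's deviation from its mates was -0.667 for control 1 and -0.735 for palbociclib 3, whereas the remaining libraries gave -0.245 to 0.600. Of the markers that define squamous cells, SOX2 was high in every library (476 to 592 CPM), whereas TP63 (at most 0.223 CPM) and KRT5 (at most 0.805 CPM) were close to 0 and DSG3 was at 0 in all libraries given a drug. Of the 7 squamous markers, only SOX2 was high. Summed markers of leukocytes ran from 1.23 to 2.18 CPM in control, 1.15 to 2.25 under BLU9931, 2.68 to 2.99 under palbociclib and 3.66 to 4.12 with both drugs, most of the change in LYZ, with PTPRC at 0 in all but the combination. Those of endothelial cells ran from 0.311 to 0.447, 0.232 to 0.509, 1.41 to 2.68 and 1.08 to 2.17 CPM, led by VWF, those of fibroblasts from 6.33 to 9.23, 11.8 to 14.1, 6.14 to 8.69 and 5.35 to 6.54 CPM, and those of lung glandular cells, nearly all NKX2-1, from 3.65 to 10.9, 11.5 to 13.1, 8.93 to 14.2 and 7.50 to 10.5 CPM. Their part in the results below was not tested.

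SMPX and SLC18A2 were highest under palbociclib alone and lower when BLU9931 was added. SMPX (ENSG00000091482, GRCh38 chromosome X, 21705972 to 21758163, minus strand) had 212, 162 and 188 counts in the control libraries and 101, 158 and 127 under BLU9931. It had 2196, 1825 and 3041 counts under palbociclib and 943, 1262 and 1179 with both drugs. Control and BLU9931 overlapped in CPM, every palbociclib library was above every combination library, and every combination library was above all libraries without palbociclib. In CPM the palbociclib mean was 14.3 times the control mean and the combination mean 6.70 times, so palbociclib alone stood 2.13 times above the combination (89.4 ± 29 against 42.1 ± 3.2 CPM). Palbociclib 3, at 123 CPM, was the highest of its group. Without it the log2 difference between combination and palbociclib was -0.79 in place of -1.09 ± 0.22 (approximate SE, derived from the F-test of the fit, as for all log2 differences below).

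SLC18A2 (ENSG00000165646, GRCh38 chromosome 10, 117241093 to 117279430, plus strand) packs dopamine, noradrenaline, serotonin and histamine into vesicles. Its counts were 115, 210 and 121 in control, 81, 112 and 109 under BLU9931, 1592, 1333 and 1530 under palbociclib, and 540, 649 and 586 with both drugs. The order of the groups was that of SMPX, with tighter libraries under palbociclib (55.9 ± 5.2 CPM). With both drugs SLC18A2 was at 22.2 ± 2.7 CPM. Palbociclib alone was 11.2 times control and 2.51 times the combination, which was itself 4.46 times control. Both genes overlapped control under BLU9931, with log2 differences of -0.37 ± 0.23 for SMPX and -0.38 ± 0.24 for SLC18A2, the latter 0.01 without control 2. As both genes were chosen on palbociclib against control, only the combination against BLU9931 tests them in libraries that did not choose them. There SMPX was 8.67 times higher (log2 3.11 ± 0.24, edgeR adjusted p = 3.39e-06) and SLC18A2 5.83 times higher (2.54 ± 0.25, edgeR adjusted p = 1.95e-05), where 13.3% of all genes tested were called higher. All 3 combination libraries were above all 3 BLU9931 libraries for each gene.

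Both genes moved together over the 12 libraries (Pearson r of log2 CPM 0.980, a description over libraries that share groups and drugs), and their promoters are shown to set that likeness beside the sequence at each start. Each run covers 250 bases before to 50 after the RefSeq start on GRCh38.p14, read 5′ to 3′ on the gene's strand, SMPX at chrX:21758067-21758366 (minus) and SLC18A2 at chr10:117240864-117241163 (plus). Capitals mark a match to one of 7 motifs searched on both strands.
SMPX: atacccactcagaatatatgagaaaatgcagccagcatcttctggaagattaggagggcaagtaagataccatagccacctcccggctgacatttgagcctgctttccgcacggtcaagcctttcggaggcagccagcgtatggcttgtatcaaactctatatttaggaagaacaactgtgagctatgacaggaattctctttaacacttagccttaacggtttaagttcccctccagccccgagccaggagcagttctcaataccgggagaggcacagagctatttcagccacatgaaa
SLC18A2: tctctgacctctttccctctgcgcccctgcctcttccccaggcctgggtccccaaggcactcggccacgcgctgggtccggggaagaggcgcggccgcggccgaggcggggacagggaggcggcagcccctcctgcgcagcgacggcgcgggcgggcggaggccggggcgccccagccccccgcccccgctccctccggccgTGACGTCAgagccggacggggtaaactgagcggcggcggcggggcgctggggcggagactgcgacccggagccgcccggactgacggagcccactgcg
The sequences are unlike in base composition. The SMPX promoter has a GC content of 48% with 8 CpG dinucleotides, and the SLC18A2 promoter 78.7% with 40. The only match among these was a cAMP response element, TGACGTCA, at position -48 from the SLC18A2 start, a motif present in 1.85% of the 35116 RefSeq promoters of this length.

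**Figure D1:**
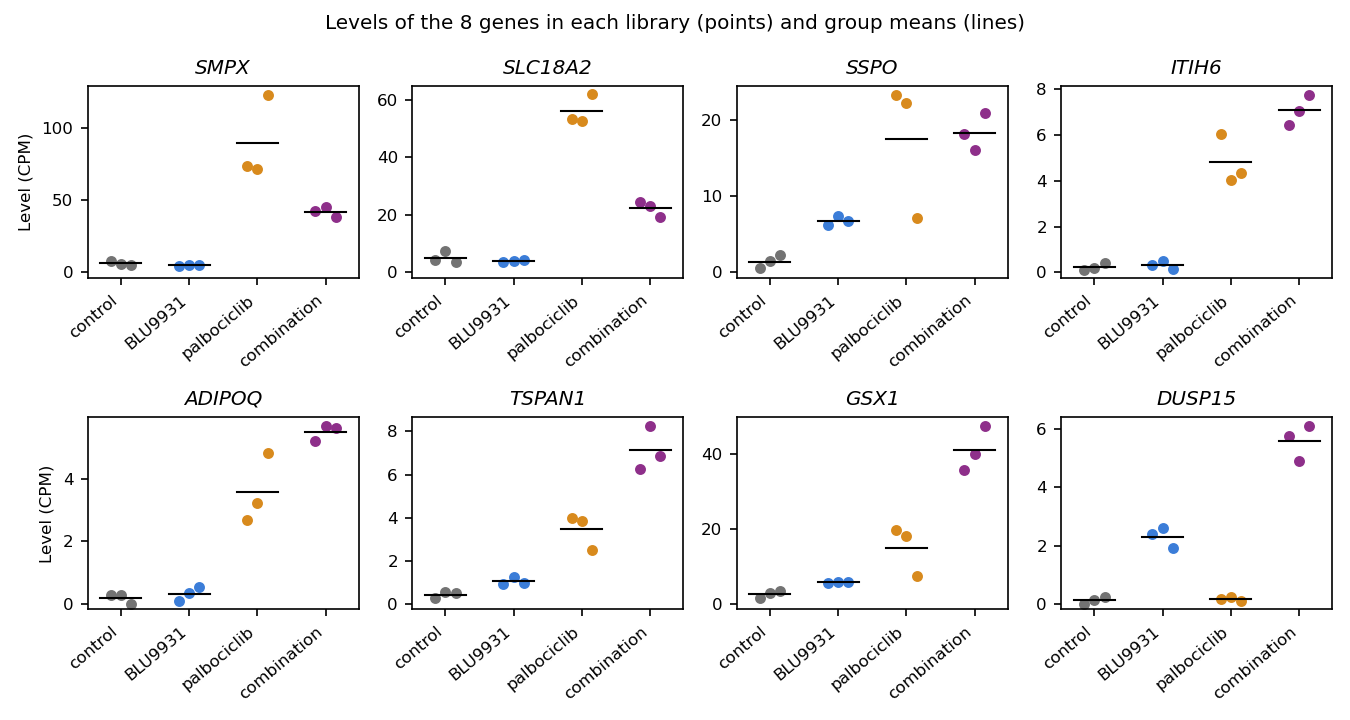
Level of each of the 8 genes (y axis, CPM, linear, own scale per panel) in the 4 groups (x axis), with a point per library and a line at the group mean. SMPX and SLC18A2 peak under palbociclib, DUSP15 is raised only in the 2 groups given BLU9931, and the other genes are highest, or as high as under palbociclib, with both drugs.

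SSPO was higher than control under each drug alone and overlapped palbociclib when both drugs were given. SSPO (ENSG00000197558, GRCh38 chromosome 7, 149776042 to 149833979, plus strand) had 16, 41 and 78 counts in control, 145, 216 and 175 under BLU9931, 695, 564 and 176 under palbociclib, and 400, 449 and 639 with both drugs. Every BLU9931 library was above every control library. Palbociclib 3, at 7.11 CPM, lay far below its mates at 23.3 and 22.2 CPM and within the BLU9931 range of 6.15 to 7.33. The mean was 4.8 times control under BLU9931, 12.5 times under palbociclib and 13.0 times with both drugs (18.3 ± 2.5 CPM). On the log2 scale the combination differed from palbociclib by 0.06 ± 0.42, and its excess over the sum of the single-drug differences was -2.17 ± 0.62. Against BLU9931, in libraries that did not choose it, the combination was 2.72 times higher (log2 1.44 ± 0.43, edgeR adjusted p = 0.0278). All combination libraries were above all BLU9931 libraries. As for every gene tested here, the spread in the fit was estimated from all 12 libraries, so the p-value is not independent of the choice. This call was narrow. It was lost without any 1 of the BLU9931 libraries (adjusted p = 0.0973, 0.0794 and 0.0869 without BLU9931 1, 2 and 3) or of the combination libraries (0.0719, 0.0577 and 0.0855 without combination 1, 2 and 3).

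SSPO differed more by TPM than by CPM. By mean TPM, the deposited value scaled by transcript length, the rises over control were 8.20 times under BLU9931, 20.7 times under palbociclib and 21.8 times with both drugs. Dividing each SSPO count by its FPKM value and the library total gives an implied length. This was 17839 to 21075 bases in control libraries, 10779 to 12231 under BLU9931, 11838 to 12151 under palbociclib and 10796 to 13555 with both drugs. The control lengths did not overlap those of any drug group. ADIPOQ showed the same, at 6142 to 6193 bases in the control libraries with counts and at most 5984 in any drug library. ITIH6 control lengths, 6332 to 8080 bases, lay above those under palbociclib (at most 6124) and with both drugs (at most 5611). With both drugs DUSP15, ITIH6 and TSPAN1 also rose more by TPM (58.0, 39.5 and 20.4 times) than by CPM (45.9, 31.2 and 16.5). The longest annotated SSPO transcript has 16683 bases. That of ADIPOQ has 4599, of ITIH6 4968, of GSX1 1663, of SLC18A2 4125 and of SMPX 938. The implied lengths of these latter genes were above the annotated ones in every library with counts. Those of SSPO, DUSP15 (1732) and TSPAN1 (1615) lay on both sides. The implied length is therefore not a measured transcript length, and a change of transcripts was not tested. Which transcripts the authors' software assigned in each library is not given in the sources used here.

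ITIH6 and ADIPOQ were close to 0 in control, overlapped control under BLU9931, were far higher under palbociclib and were somewhat higher again with both drugs. ITIH6 (ENSG00000102313, GRCh38 chromosome X, 54748899 to 54798240, minus strand) had 3, 5 and 14 counts in control, 8, 14 and 4 under BLU9931, 180, 103 and 108 under palbociclib, and 142, 198 and 237 with both drugs. Heavy chains of its family are known for their covalent link to hyaluronan. Control and BLU9931 overlapped, palbociclib lay wholly above both at 4.82 ± 1.07 CPM, and the combination lay wholly above palbociclib at 7.08 ± 0.66 CPM. The combination mean was 1.47 times the palbociclib mean, a log2 difference of 0.55 ± 0.31.

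ADIPOQ (ENSG00000181092, GRCh38 chromosome 3, 186842690 to 186858463, plus strand) had 8, 8 and 0 counts in control, 2, 10 and 14 under BLU9931, 80, 82 and 120 under palbociclib, and 115, 160 and 172 with both drugs. The 16 control counts in all carry an exact 95% Poisson interval of 9.15 to 26.0, which covers counting error only. Its combination libraries were close together at 5.21 to 5.69 CPM, just above the highest palbociclib library at 4.85 CPM, and the combination mean was 1.54 times the palbociclib mean (log2 0.62 ± 0.48). For both genes palbociclib alone reached most of the combined level: 67.0% of the combination's rise in CPM over control for ITIH6 and 63.8% for ADIPOQ, against 1.4% and 2.45% under BLU9931 alone.

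The test for these genes, as for TSPAN1, GSX1 and DUSP15, was palbociclib against BLU9931, whose 6 libraries did not choose them. ITIH6 was 14.9 times higher under palbociclib than under BLU9931 (log2 3.86 ± 0.39, edgeR adjusted p = 8.7e-05), and ADIPOQ 11.1 times higher (3.44 ± 0.60, edgeR adjusted p = 0.00268). In this comparison 4 of these 5 genes were called higher, where 8.67% of all genes tested were, and 1, DUSP15, was called lower, where 8.37% were. The ITIH6 and ADIPOQ libraries of the 2 groups did not overlap.

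TSPAN1 and GSX1 were above control under BLU9931, higher under palbociclib and highest with both drugs. TSPAN1 (ENSG00000117472, GRCh38 chromosome 1, 46175073 to 46185958, plus strand) had 7, 16 and 17 counts in control, 22, 37 and 25 under BLU9931, 119, 98 and 62 under palbociclib, and 138, 232 and 210 with both drugs. In CPM the 4 groups formed steps without overlap: 0.26 to 0.55 in control, 0.93 to 1.26 under BLU9931, 2.51 to 3.99 under palbociclib and 6.25 to 8.25 with both drugs. The means were 2.44, 7.99 and 16.5 times control, and the sum of the single-drug log2 differences came to within an excess of -0.22 ± 0.38 of the combination.

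GSX1 (ENSG00000169840, GRCh38 chromosome 13, 27792643 to 27794768, plus strand) had 41, 81 and 117 counts in control, 131, 174 and 150 under BLU9931, 585, 458 and 181 under palbociclib, and 787, 1123 and 1444 with both drugs. It showed the same 4 steps as TSPAN1, at 1.53 to 3.31, 5.56 to 5.91, 7.31 to 19.6 and 35.7 to 47.3 CPM. Palbociclib 3, at 7.31 CPM, was again far under its mates at 19.6 and 18 CPM. The GSX1 means were 2.3, 5.88 and 16.1 times control, with an excess over the sum of 0.28 ± 0.48. Palbociclib alone reached 45.1% of the combination's rise in CPM for TSPAN1 and 32.4% for GSX1, and BLU9931 alone 9.27% and 8.35%.

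Under palbociclib TSPAN1 was 3.28 times higher than under BLU9931 (log2 1.71 ± 0.27, edgeR adjusted p = 0.00135) and GSX1 2.60 times higher (1.38 ± 0.34, edgeR adjusted p = 0.0171). The GSX1 call was lost without any 1 BLU9931 library (adjusted p = 0.068, 0.0639 and 0.0622 without BLU9931 1, 2 and 3) and without palbociclib 1 (0.0686) or palbociclib 2 (0.0657). Without palbociclib 3 the GSX1 difference was log2 1.71 with adjusted p = 0.000682. The promoters of this second pair of like genes (Pearson r of log2 CPM 0.981 over the 12 libraries) are at chr1:46174837-46175136 and chr13:27792233-27792532, both plus strand of GRCh38.p14.
TSPAN1: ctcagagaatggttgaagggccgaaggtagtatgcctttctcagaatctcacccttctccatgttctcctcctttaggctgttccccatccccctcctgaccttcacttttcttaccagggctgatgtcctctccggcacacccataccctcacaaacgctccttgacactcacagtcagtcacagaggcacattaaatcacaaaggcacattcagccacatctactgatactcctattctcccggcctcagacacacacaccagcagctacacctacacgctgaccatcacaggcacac
GSX1: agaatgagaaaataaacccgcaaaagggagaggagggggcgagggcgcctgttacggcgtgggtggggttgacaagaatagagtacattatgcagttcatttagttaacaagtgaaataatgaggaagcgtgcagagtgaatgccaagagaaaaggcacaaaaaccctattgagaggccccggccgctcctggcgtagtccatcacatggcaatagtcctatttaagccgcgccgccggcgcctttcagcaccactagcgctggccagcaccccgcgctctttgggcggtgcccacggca
They hold no match to any of the 7 motifs, which says only that those letters are not in these windows. Their GC contents are alike, 52% for TSPAN1 and 55% for GSX1, with 5 and 19 CpG dinucleotides.

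DUSP15 was the exception, higher under BLU9931 and not under palbociclib. DUSP15 (ENSG00000149599, GRCh38 chromosome 20, 31847637 to 31870747, minus strand) had 0, 4 and 8 counts in control and 5, 6 and 2 under palbociclib, and 56, 77 and 50 under BLU9931 and 127, 138 and 186 with both drugs. The 12 control counts have an exact 95% Poisson interval of 6.20 to 21.0 and the 13 palbociclib counts one of 6.92 to 22.2, so the groups could not be told apart at this depth. BLU9931 libraries lay wholly above both (2.31 ± 0.35 CPM, 19.0 times control) and combination libraries wholly above BLU9931 (5.58 ± 0.61 CPM, 45.9 times control). The fitted log2 difference from control was 4.11 ± 0.49 under BLU9931, 0.32 ± 0.66 under palbociclib and 5.38 ± 0.49 with both. These differences rest on few control counts: without control 3 they were 4.94, 1.13 and 6.19.

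Set against palbociclib, in the comparison that did not choose it, DUSP15 was 14.3 times higher under BLU9931 (log2 of palbociclib over BLU9931 -3.79 ± 0.49, edgeR adjusted p = 0.0004). Adding palbociclib to BLU9931 went with a 2.42 times higher mean (log2 1.27 ± 0.36), although palbociclib alone accounted for 0.73% of the combination's rise and BLU9931 alone for 40%. The excess over the summed single-drug differences was 0.95 ± 0.77, and 0.12 without control 3. Of the 8 genes DUSP15 had the largest such share from BLU9931, followed by SSPO at 31.6%. RefSeq lists 3 starts for DUSP15; the first, at chr20:31870615-31870914 (minus), is shown because it held the only other motif match, an ETS site, CCGGAAG, at position -147 from the start, a motif present in 10.3% of promoters.
DUSP15: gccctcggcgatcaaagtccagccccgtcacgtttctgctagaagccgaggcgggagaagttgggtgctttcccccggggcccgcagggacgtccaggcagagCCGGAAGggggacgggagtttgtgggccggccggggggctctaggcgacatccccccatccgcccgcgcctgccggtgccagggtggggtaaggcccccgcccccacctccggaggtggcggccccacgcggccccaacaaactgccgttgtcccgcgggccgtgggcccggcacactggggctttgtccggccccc
Its GC content is 73.7%, with 29 CpG dinucleotides. The promoters of ITIH6 and ADIPOQ and the other starts of DUSP15 held no match. The other motifs searched, with the share of promoters that hold each, were the TATA box with letters TATAAA (11.5%), the cell cycle element CHR with letters TTTGAA (15.2%), the site of AP-1 factors with letters TGANTCA (7.71%), the forkhead site with letters TGTTTAC (3.42%) and the E-box with letters CACGTG (7.26%). No 2 of the matches overlap.

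**Figure D2:**
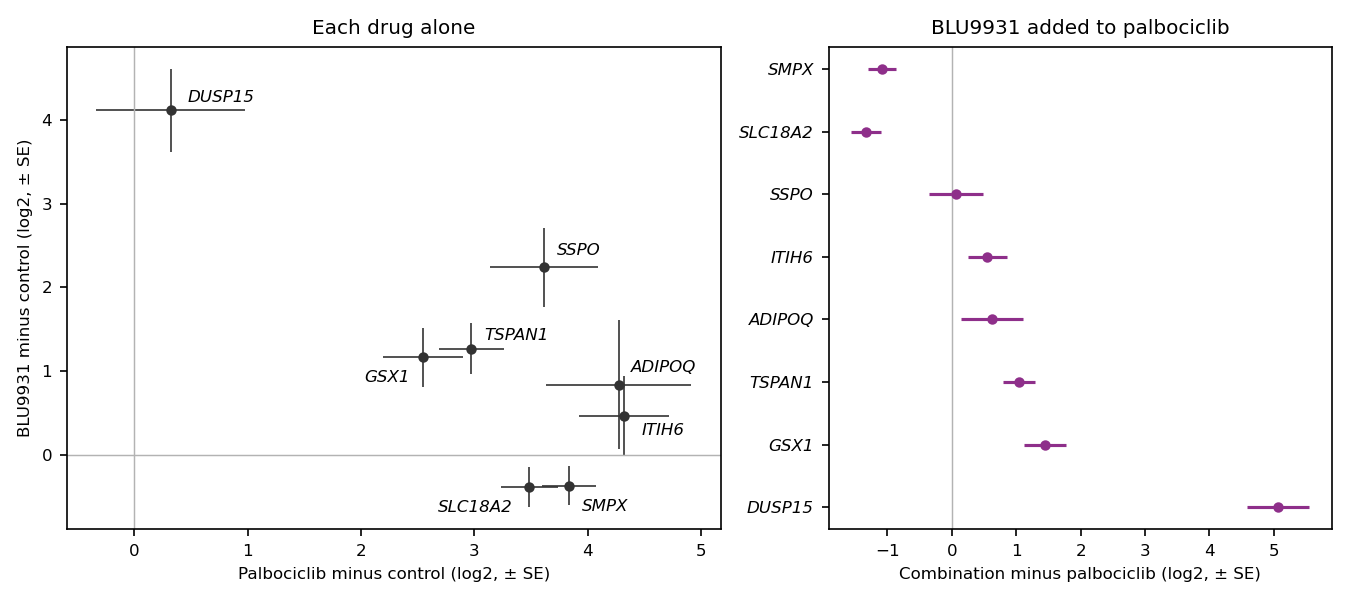
Left, log2 difference from control under BLU9931 (y axis) against that under palbociclib (x axis), with bars of 1 SE; right, log2 difference between the combination and palbociclib for each gene, with 1 SE. DUSP15 stands alone at high BLU9931 and near 0 palbociclib, and on the right SMPX and SLC18A2 are below 0 (-1.09 and -1.33) while DUSP15 is far above (5.07).

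The effect of adding BLU9931 to palbociclib ran from a fall to a steep rise across the 8 genes. The log2 difference of the combination from palbociclib was -1.33 ± 0.23 for SLC18A2 and -1.09 ± 0.22 for SMPX, 0.06 ± 0.42 for SSPO, 0.55 ± 0.31 for ITIH6, 0.62 ± 0.48 for ADIPOQ, 1.04 ± 0.24 for TSPAN1, 1.45 ± 0.33 for GSX1 and 5.07 ± 0.48 for DUSP15. BLU9931 alone against control gave -0.38 ± 0.24, -0.37 ± 0.23, 2.24 ± 0.47, 0.46 ± 0.48, 0.84 ± 0.77, 1.27 ± 0.30, 1.17 ± 0.35 and 4.11 ± 0.49 in that order. SSPO is the gene for which the 2 series part most. All of these are descriptions without a test, because their libraries took part in the choice.

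**Figure D3:**
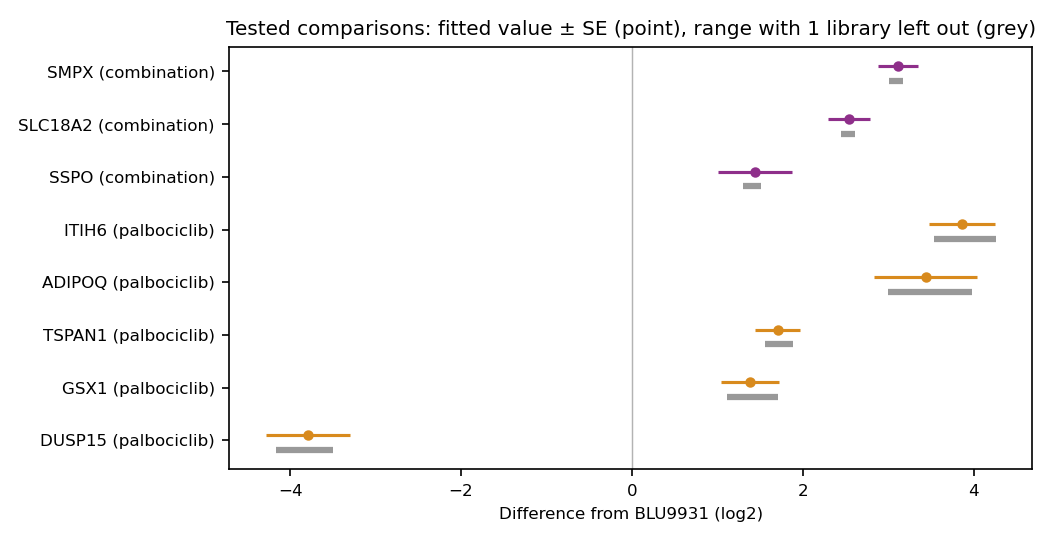
Log2 difference from BLU9931 (x axis) of each gene in the comparison that did not choose it, combination for SMPX, SLC18A2 and SSPO and palbociclib for the other 5; points are fitted values with 1 SE and grey bars the range with 1 library left out. DUSP15 alone lies below 0, at -3.79, and no grey bar crosses 0.

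Per length, the 8 genes reached very different levels. In TPM with both drugs, SMPX was highest (81.5 to 97.1), then GSX1 (40.2 to 53.2). SLC18A2 (9.23 to 11.9), TSPAN1 (8.48 to 11.5) and DUSP15 (7.33 to 9.41) overlapped each other, and so did SSPO (3.08 to 4.50) and ITIH6 (2.81 to 3.29), with ADIPOQ lowest (2.12 to 2.36). Under palbociclib SMPX stood at 158 to 258 TPM and SLC18A2 at 25.6 to 29.2 TPM. In control SMPX, at 11.3 to 17.4 TPM, was already above the combination level of 4 of the genes, SSPO, ITIH6, ADIPOQ and DUSP15.

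Few genes went from near silence to this range. Of 4933 tested genes with a control mean under 1 CPM, 23 (0.466%) reached a mean of 5 CPM under palbociclib or the combination, 20 of them protein-coding, among them the 4 low genes DUSP15, TSPAN1, ITIH6 and ADIPOQ. With the highest control library in place of the control mean the number was 11. None of the 23 reached a mean of 5 CPM under BLU9931 alone, the highest there being KBTBD11-OT1 at 4.75 ± 1.85 CPM. A rise under BLU9931 alone did not admit a gene to the 23, so this does not count the genes that BLU9931 raised. Palbociclib lay wholly above control in 20 of them, beside 15.8% of all genes tested. That number is partly built in, since the 23 were taken for a low control and a high level under palbociclib or the combination. AC010132.3 (5.37 ± 8.47 CPM) and KBTBD11-OT1 (6.35 ± 6.20 CPM) had very unequal libraries with both drugs. DUSP15 had the lowest palbociclib mean of the 23. The protein-coding genes of this kind with the highest combination levels were CDA, a cytidine deaminase (0.976 ± 0.125 to 10.9 ± 1.8 CPM), the calcium-binding S100A3 (0.970 ± 0.168 to 9.06 ± 0.46), EPSTI1 (0.668 ± 0.160 to 8.49 ± 0.73), the cholesterol exporter ABCA1 (0.695 ± 0.157 to 8.10 ± 0.43) and the endocytic receptor CUBN (0.957 ± 0.216 to 7.60 ± 0.68).

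The libraries that stood apart moved several of the genes. SSPO and GSX1, whose longest transcripts have GC contents of 66.7% and 64.4% (percentiles 98.3 and 95.8 of tested genes), lay below their mates by log2 values of -1.46 and -0.96 in control 1 and -1.67 and -1.35 in palbociclib 3. SMPX (GC 41.7%, percentile 22.5) lay above, by 0.52 in control 1 and 0.76 in palbociclib 3. ADIPOQ (44.0%, percentile 32.5) lay above by 1.22 and 0.71, but its control counts were 8, 8 and 0, so the first of these comes from the 0 in control 3. SLC18A2 (42.9%) deviated by -0.22 and 0.22, TSPAN1 (52.0%) by -0.82 and -0.63, ITIH6 (53.0%) by -0.88 and -0.18, and DUSP15 (58.2%), with 0 counts in control 1, by -1.79 and -0.83. With both libraries left out, the mean CPM in control and palbociclib were 1.81 and 22.7 for SSPO, 3.06 and 18.8 for GSX1, 5.46 and 72.7 for SMPX, and 0.138 and 2.95 for ADIPOQ. The part of GC content in these results was not tested.

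**Figure D4:**
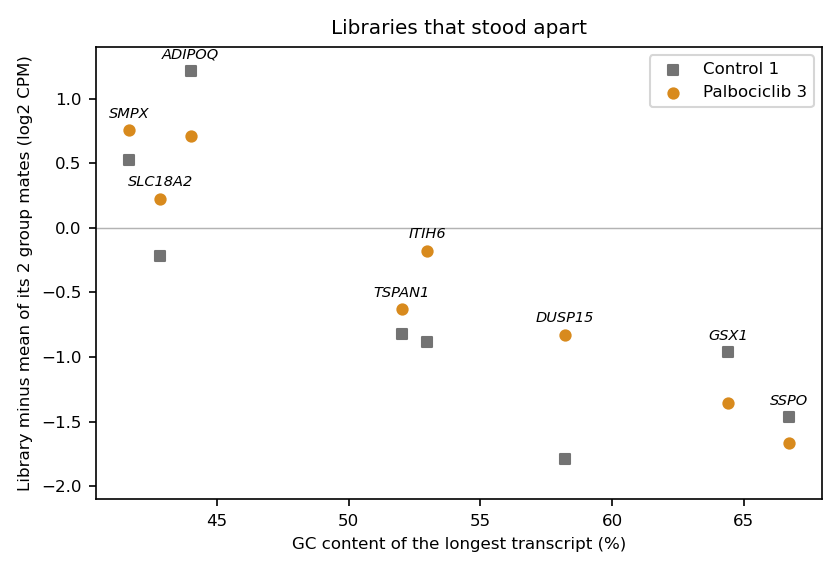
Deviation of control 1 (squares) and palbociclib 3 (circles) from the mean of their 2 group mates (y axis, log2 CPM) against the GC content of each gene's longest transcript (x axis, %). The GC-rich SSPO and GSX1 lie lowest among the palbociclib 3 points, and SMPX and ADIPOQ lie above 0 in both libraries, ADIPOQ in control 1 because control 3 had 0 counts.

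Of the 16 nearest tested genes on either side, 5 were called higher and 1 lower under palbociclib, beside 10% and 10.5% of all genes, and 4 higher and 2 lower with both drugs, beside 15.4% and 16.3%. Beside TSPAN1, PIK3R3, a regulatory subunit of phosphoinositide 3-kinase 42037 bases away, rose from 55.8 ± 8.8 CPM to 188 ± 22 under palbociclib (edgeR adjusted p = 2.1e-05) and 187 ± 27 with both drugs (5.84e-06). The levels of PIK3R3 did not step up with the second drug as those of TSPAN1 did. Beside ITIH6, MAGED2, 9359 bases away, rose from 41.0 ± 1.1 to 65.7 ± 2.9 (edgeR adjusted p = 0.000355) and 96.5 ± 1.3 CPM (1.92e-06). Beside SSPO, ZNF862 was at 15.5 ± 2.6 CPM in control and rose to 30.6 ± 1.3 with both drugs (edgeR adjusted p = 0.00337). Beside DUSP15, the muscle kinase gene MYLK2, 12948 bases away, fell from 5.97 ± 1.54 to 1.73 ± 0.70 CPM with both drugs (edgeR adjusted p = 0.00119). An unprocessed pseudogene 15353 bases from ADIPOQ rose from 4.31 ± 1.51 to 17.8 ± 2.7 CPM (AC112907.2, edgeR adjusted p = 0.00138). Under palbociclib the 5 became 2 without palbociclib 1 or palbociclib 2 and 3 without control 1 or control 3. Without palbociclib 1 and palbociclib 2 in turn the adjusted p was 0.106 and 0.152 for ZNF467 beside SSPO, 0.0509 and 0.0555 for ZNF862, and 0.0956 and 0.1 for AC112907.2. ZNF467 (0.395 ± 0.205 CPM in control, 1.58 ± 0.89 under palbociclib, edgeR adjusted p = 0.0418) and AC112907.2 also lost it without control 1 (0.104 and 0.0712) or control 3 (0.137 and 0.055), and ZNF467 without BLU9931 2 or 3 or combination 1 or 2 (0.0556 to 0.0602). The other gene called lower with both drugs, MBTPS2 beside SMPX, lost that call without control 1 (adjusted p = 0.0672), combination 1 (0.0559) or combination 3 (0.0749).

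Genes that overlap the 8 bear on their counts, since the use of strand in counting is not given. SLC18A2 overlaps PDZD8 on the opposite strand, which was at 72.4 ± 4.9 CPM in control and 68.7 ± 9.9 under palbociclib (edgeR adjusted p = 0.735). The PDZD8 means, 60.6 to 72.4 CPM over the groups, stood above those of SLC18A2 in every group. DUSP15 overlaps TTLL9, which had 2 to 16 counts in any library and its highest mean under palbociclib, where DUSP15 was near its lowest. ADIPOQ overlaps ADIPOQ-AS1, which had at most 7 counts in a library. TSPAN1 overlaps AL358075.4 on the opposite strand, which had 3 to 15 counts in control libraries, near the 7 to 17 of TSPAN1. AL358075.4 had 0 to 18 counts under palbociclib and 0 to 13 with both drugs. Inside SLC18A2, AL391988.1 had 14 to 52 counts in any library. SMPX, SSPO, ITIH6 and GSX1 overlap no gene that the table lists. Whether reads of an overlapping gene entered the counts of SLC18A2, DUSP15, TSPAN1 or ADIPOQ was not tested.

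Relatives of each gene in family or function were listed and counted; over all genes tested, 10% were called higher and 10.5% lower under palbociclib, and 15.4% and 16.3% with both drugs. Of 31 genes of striated muscle, listed for SMPX, only 9 were abundant enough to test, and MB, the oxygen store myoglobin, was the 1 called higher, from 0.0939 ± 0.0863 CPM to 1.69 ± 0.25 under palbociclib (edgeR adjusted p = 0.000636) and 1.3 ± 0.2 with both drugs (0.000618). The muscle markers MYOD1, MYOG, ACTA1 and CKM stayed low while SMPX changed: the 4 summed to 0.372 to 0.906 CPM in control, 0.541 to 1.10 under BLU9931, 0.485 to 1.17 under palbociclib and 0.770 to 1.03 with both drugs. With both drugs the striated muscle list had 2 genes called higher without palbociclib 3 or combination 1, and 3 when scaled by library totals. The median log2 difference of the list was 0.30 under both treatments, beside 0.01 and 0.03 over all genes.

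For SLC18A2, 13 of 22 genes of monoamine handling were tested, of which 3 were called higher under palbociclib and 6 with both drugs, beside 10% and 15.4% of all genes, and none lower, with medians of 0.33 and 0.51. MAOB, which breaks monoamines down, rose from 30.1 ± 2.2 CPM to 59.1 ± 3.0 and 77.9 ± 2.8 (edgeR adjusted p = 7.2e-05 and 1.92e-06). SLC6A2, the noradrenaline transporter, rose from 0.129 ± 0.053 to 1.08 ± 0.43 CPM with both drugs (edgeR adjusted p = 0.00513). MAOB and SLC6A2 were higher with both drugs than with palbociclib by their means, unlike SLC18A2. The 6 became 3 without control 1 and 2 without control 3 or combination 3. The 3 under palbociclib became 1 without control 2, control 3, palbociclib 3 or combination 1.

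For ADIPOQ, 16 of 24 genes of fat cells and adiponectin signalling were tested, with 1 called higher and 4 lower under palbociclib and 2 higher and 4 lower with both drugs. LPL, lipoprotein lipase, fell from 35.6 ± 2.6 CPM to 8.01 ± 1.66 and 1.57 ± 0.27 (edgeR adjusted p = 2.21e-05 and 7.3e-08). PLIN4, a lipid droplet coat protein, rose from 1.02 ± 0.41 to 5.01 ± 0.25 CPM with both drugs (edgeR adjusted p = 0.000514). LPL thus went the opposite way from ADIPOQ. The fat cell markers FABP4, PLIN1, CIDEC and LEP summed to 0.670 to 1.56 CPM in control, 0.934 to 2.14 under BLU9931, 0.323 to 0.865 under palbociclib and 0.284 to 0.654 with both drugs, with LEP at 0 in all libraries. The 1 gene called higher under palbociclib became 0 without palbociclib 1, 2 without combination 1 and 3 without palbociclib 3, and the 4 called lower became 2 without control 2, control 3 or palbociclib 2.

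For GSX1, 20 of 24 ParaHox and forebrain progenitor factors were tested, with 2 called higher and 3 lower under palbociclib and 2 higher and 7 lower with both drugs (medians -0.20 and -0.61). PAX6, a factor of the eye and forebrain, fell from 17.8 ± 1.1 to 5.27 ± 0.39 CPM with both drugs (edgeR adjusted p = 5.25e-06). GBX2, a factor of the midbrain and hindbrain border, fell from 6.15 ± 0.65 to 1.97 ± 0.45 CPM with both drugs (edgeR adjusted p = 6.81e-05). The 7 became 4 without control 3 or combination 1.

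For TSPAN1, 26 of 32 tetraspanins were tested, with 3 called higher and 2 lower under palbociclib and 5 higher and 3 lower with both drugs. CD82 rose from 0.964 ± 0.274 CPM to 2.65 ± 0.74 and 3.59 ± 1.00 (edgeR adjusted p = 0.00518 and 0.000531), TSPAN18 from 24.4 ± 5.0 to 67.8 ± 16.6 and 65.9 ± 6.2 (0.000428 and 0.000239), and CD9 fell from 54.0 ± 4.8 to 27.0 ± 2.3 CPM with both drugs (6.42e-05). Without palbociclib 3 the 3 became 7, and without control 2 or palbociclib 2 the 2 became 1. For ITIH6, 18 of 27 genes of the inhibitor family and hyaluronan matrix were tested, with 8 called higher (10% of all genes) and 1 lower (10.5%) under palbociclib and 7 higher (15.4%) and 2 lower (16.3%) with both drugs (medians 0.45 and 0.44). ITIH4, its relative in the family, rose from 2.46 ± 0.09 to 6.55 ± 1.15 CPM with both drugs (edgeR adjusted p = 0.000344), and the hyaluronan receptor HMMR, also a mitotic gene, fell from 135 ± 23 to 28.7 ± 6.0 (3.81e-05). The 8 became 5 without palbociclib 2, and the 1 became 0 without control 2, palbociclib 1 or palbociclib 2.

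For DUSP15, 18 of 21 atypical dual-specificity phosphatases were tested, with none called higher and 1 lower under palbociclib and 3 higher and 1 lower with both drugs, and medians of 0.01 and 0.11 near those of all genes. DUSP14 rose from 45.1 ± 2.2 to 62.4 ± 4.1 CPM with both drugs (edgeR adjusted p = 0.0044) and DUSP12 fell from 31.5 ± 1.9 to 21.7 ± 1.3 (0.00303). DUSP22 rose by log2 1.27 ± 0.31 with both drugs (edgeR adjusted p = 0.00925), from 10.9 ± 1.4 to 26.3 ± 12.2 CPM, and was at 24.6 ± 8.3 CPM under BLU9931 and 18 ± 1.4 under palbociclib. The 1 lower gene became 2 without control 1 or palbociclib 3. For SSPO, 24 of 33 thrombospondin repeat proteins were tested, with 4 called higher and 2 lower under palbociclib and 5 higher and 6 lower with both drugs. THBS1 fell from 664 ± 66 to 274 ± 7 CPM with both drugs (edgeR adjusted p = 1.06e-06), and ADAMTSL4 rose from 4.41 ± 0.72 to 9.77 ± 2.13 under palbociclib and 11.6 ± 1.4 with both drugs (0.00151 and 0.000204). The 5 became 3 without control 2 or combination 3, the 6 became 3 without combination 3, and the 2 became 1 without control 2, control 3, any BLU9931 library, palbociclib 2 or combination 1.

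Across the 12 libraries, the genes whose log2 CPM ran most like each of the 8 were ranked by Pearson's r among 14353 protein-coding genes, as a description over libraries that share groups and drugs. TXNIP, an inhibitor of thioredoxin, was closest to SMPX (0.996) and second closest to SLC18A2 (0.982), after PTX3 (0.985), a soluble pattern recognition protein. ENPP2, the secreted phospholipase autotaxin, was closest to ITIH6 (0.989), and the lipid exporter ABCG1 closest to TSPAN1 (0.992). GSX1 was closest to the aldehyde dehydrogenase ALDH3A1 (0.993), SSPO to ZNF740 (0.991), ADIPOQ to the chloride transporter CLCN4 (0.975) and DUSP15 to B4GALNT3 (0.970). For ADIPOQ none of the 3 closest genes was kept with a prior count of 0.5, and ranking by Spearman's rho kept at most 1 of the 3 for any of the 8. Among the 8 themselves, DUSP15 had an r of -0.034 with SMPX and -0.084 with SLC18A2.

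Where the choice stopped was a matter of small differences. Over all 20612 genes tested, with no such limits, SMPX, SSPO and SLC18A2 ranked 49, 57 and 64 by log2 difference under palbociclib, below ITIH6 (33) and ADIPOQ (35), which did not reach a mean of 5 CPM there. DUSP15, ADIPOQ, ITIH6, TSPAN1 and GSX1 ranked 20, 29, 30, 45 and 47 with both drugs. Within the limits, by palbociclib against control, SLC18A2 (3.49 ± 0.25) lay just inside and SLC9A4 (3.43 ± 0.16) just outside, and ENPP2 (3.50 ± 0.22) ranked above SLC18A2 without being one of the 8. By the combination against control, a gene with a clone name, AC010132.3 (10.2 ± 2.6), ranked first and was passed over. It was at 0 CPM in all control libraries, so its difference and SE are not well determined. GSX1 lay just inside at 4.0 ± 0.37 and ENPP2 just outside at 3.99 ± 0.22.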

How the data were processed

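Libraries were made from total RNA with an mRNA kit, per the labels' protocols. For each gene and library the authors deposited a raw count, TPM and FPKM, named so per the file headers. Per the submitters' processing notes, Trimmomatic 0.36, HISAT2 2.0, bedtools 2.26.0 and StringTie 1.3.3b were used, with a mouse build named; the counting tool, its strand setting and the annotation are not given in the sources used here. The 58174 human gene IDs include 57836 known to GENCODE 29, where 56033 share both ends, and positions are therefore given on GRCh38.

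The deposited counts were fitted in R 4.3.3 with edgeR 4.0.16 (filterByExpr, TMM, robust quasi-likelihood F-test, two-sided; 12 libraries together, 8 residual degrees of freedom), with Benjamini-Hochberg adjustment over 20612 genes and a threshold of 0.05. Fold values are ratios of mean CPM. The SE of a log2 difference is approximate: its absolute value over the square root of F from the quasi-likelihood test. The fit was tested on simulated counts without GC-linked deviations of single libraries, so that test does not cover those of control 1 and palbociclib 3. Alternatives were DESeq2 1.42.0, limma 3.58.1 on log2 of deposited TPM with a pseudocount of 0.1 or 1, library totals, no low-count filter, a replicate block and each library left out. Implied length is the count over the deposited FPKM value and the library total. Python 3.11.15 made tables and plots. The table has 0 columns of other samples.

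The members, gene lists, motifs and tests were chosen with earlier results of these data known. Named genes were the 8, the genes that overlap or flank them, for each list up to 3 tested genes with the smallest adjusted p in the combination against control (of which some are printed), the 3 genes most alike by Pearson's r (log2 CPM, prior count 2; the closest are printed) and the 5 protein-coding genes with the highest combination level among those raised from under 1 CPM to 5 CPM. RefSeq promoters matched 7 of the 8, all but SSPO. Some results for single genes and 1 marker list are not reported here.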

Additional observations from a re-analysis of the deposited data

How the results depend on the processing

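The 6 tested calls of SMPX and SLC18A2 (combination against BLU9931) and of ITIH6, ADIPOQ, TSPAN1 and DUSP15 (palbociclib against BLU9931) kept their direction and stayed under the threshold in all 19 alternatives, with log2 differences of 2.93 to 3.17, 2.08 to 2.61, 1.36 to 4.25, 1.12 to 3.98, 1.39 to 1.89 and -4.16 to -1.72. SSPO lost its call in 8 alternatives, among them no filter (adjusted p = 0.0643) and the replicate block (0.0568), and GSX1 in 5; the cause was not tested, beyond the fewer libraries where 1 was left out. Left-out libraries moved the number of genes called from 2985 to 5689 for palbociclib against control, 5105 to 7869 for the combination against control, 4120 to 6836 for the combination against BLU9931 and 2134 to 4056 for palbociclib against BLU9931 (main values 4236, 6532, 5572 and 3513). Without control 1 and palbociclib 3 together, 8685 genes were called in the combination against BLU9931 and 5513 in palbociclib against BLU9931. With the replicate block the counts were 3231, 5613, 4688 and 2553, and the block ended no other call of the 8 genes. Deviations of same-numbered libraries from their group means gave r of -0.612 to 0.347. The lowest values came from pairs with control 1 or palbociclib 3, which stood apart from their mates. These values therefore cannot settle whether the numbers pair libraries. Genes raised from under 1 CPM to 5 CPM numbered 25 with library totals and 11 with the highest control library. With library totals the median of all genes in the combination against control moved from log2 0.03 to 0.11. Among untested values, the excess over the summed single-drug differences changed sign in 5 alternatives for ADIPOQ, 3 for ITIH6 and 1 each for TSPAN1 and GSX1, and the SSPO difference between combination and palbociclib in 3. Depth limits DUSP15, ITIH6 and ADIPOQ, with at most 14 counts in any control library.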
